A study of Rattus norvegicus with 6 samples.

Results

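Endothelial and blood-brain barrier genes were followed in rat cerebral arteries through 10 genes named by symbol: the junction genes Pecam1, Cdh5, Cldn5 and Ocln, the growth factor receptors Tek, Flt1 and Kdr, and the genes of clotting and leukocyte adhesion, Vwf, Icam1 and Vcam1. They were picked by symbol, and the choice was made with earlier results of these data known. A probe set with the symbol was found for 8 of the 10, and Cdh5 and Tek were not analysed here. These 8 genes, of 10411 genes in all, had 11 of the 15866 probe sets tested, and where a gene had several, the one brightest on average stood for it.

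The endothelium is the single cell layer that lines every vessel. In the brain its cells are joined by tight junctions, in which claudin-5 (Cldn5) and occludin (Ocln) lie side by side with adherens junctions, so that little passes between cells and most solutes must go through transporters. When activated by cytokines the same cells display the ligands ICAM-1 and VCAM-1, to which leukocyte integrins bind. Vascular endothelial growth factor (VEGF) acts on them through the receptors encoded by Kdr and Flt1.

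Intact branch arteries of the circle of Willis (middle and posterior cerebral, posterior cerebellar), the ring that feeds the brain, came from Dahl rats, a stock known for lines that differ in how salt raises blood pressure; the labels did not name the line. All rats ate chow with 0.4% NaCl until 7 weeks of age. The low salt group (3 arrays) then stayed on 0.4% NaCl for 12 weeks, and the high salt group (3 arrays) received 8% NaCl, for 11 weeks by one label and 12 by another. Every array held RNA pooled from 3 rats, 9 rats per diet, so that animals could not be told apart, and sex was not given. Whole arteries hold smooth muscle, endothelium and adhering cells together, and in such bulk RNA fewer cells of a type and less RNA per cell cannot be told apart.

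By limma with Benjamini-Hochberg adjustment 0 of 15866 probe sets passed an adjusted p of 0.05 (0% called). The 32 of 45 listed endothelial identity genes that were measured, none of them a member, had a mean of 9.34 to 9.77 log2 units on the low salt arrays and 9.49 to 9.82 on the high salt arrays, and 1 of them lay below the lower quartile of probe sets, so endothelial RNA was present on every array. Smooth muscle markers (13 of 13 measured) had a mean of 11.65 to 12.35 on low salt and 11.72 to 11.86 on high salt, and all 13 had a lower mean after high salt (median -0.14), where 60.0% of all genes had a higher one. The 4 measured red blood cell markers were all higher, with array means of 8.98 to 9.09 on low salt and 9.28 to 9.87 on high salt. The part of a changed mix of cells in the results that follow was not tested. Low salt replicate 2 stood apart from the other low salt arrays in its markers. Its mean over 11 astrocyte markers was 10.73, against 9.49 and 8.86 on replicates 1 and 3, and 10.45 to 10.74 on high salt. The 3′ minus 5′ signal of the actin control, which grows as RNA or its copies shorten, was 3.16 to 3.56 log2 units on low salt and 3.31 to 3.89 on high salt, with the groups overlapping. That of the GAPDH control was 2.44 to 3.30 on low salt, the highest on replicate 1, and 1.94 to 2.69 on high salt. The mean of the spiked bioB control ran from 6.57 (replicate 2) to 8.55 (replicate 1) on low salt and from 6.83 to 8.07 on high salt. Low salt replicate 1 stood apart in its upper quartile of 9.22, where the other arrays had 9.50 to 9.71, and limma gave it the lowest array weight, 0.343, followed by replicate 2 with 0.496. Array medians ran from 7.96 to 8.07 on low salt and from 8.15 to 8.17 on high salt.

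Of the 8 members 6 had a higher mean after high salt, where 60.0% of all genes did, and the median difference was 0.21 log2 units, against 0.067 over all genes. Past the threshold stood 0 members (limma, Benjamini-Hochberg), and at an unadjusted p below 0.05 also 0, where 6.43% of genes lay. The arrays of the diets did not overlap for 1 member, Icam1, which was higher, where 12.0% of genes did not overlap (8.64% higher and 3.32% lower). After median centring, quantile normalization and centring on endothelial identity genes 5 members had a higher mean, where 42.8%, 46.3% and 39.6% of all genes did. At an unadjusted p below 0.05 the members' count of 0 thus stood beside 5.72% of genes higher and 0.711% lower. The differences of the single genes were of unlike size, from -0.23 for Ocln to 1.14 for Kdr, and the arrays behind them were of unlike spread.

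**Figure D1:**
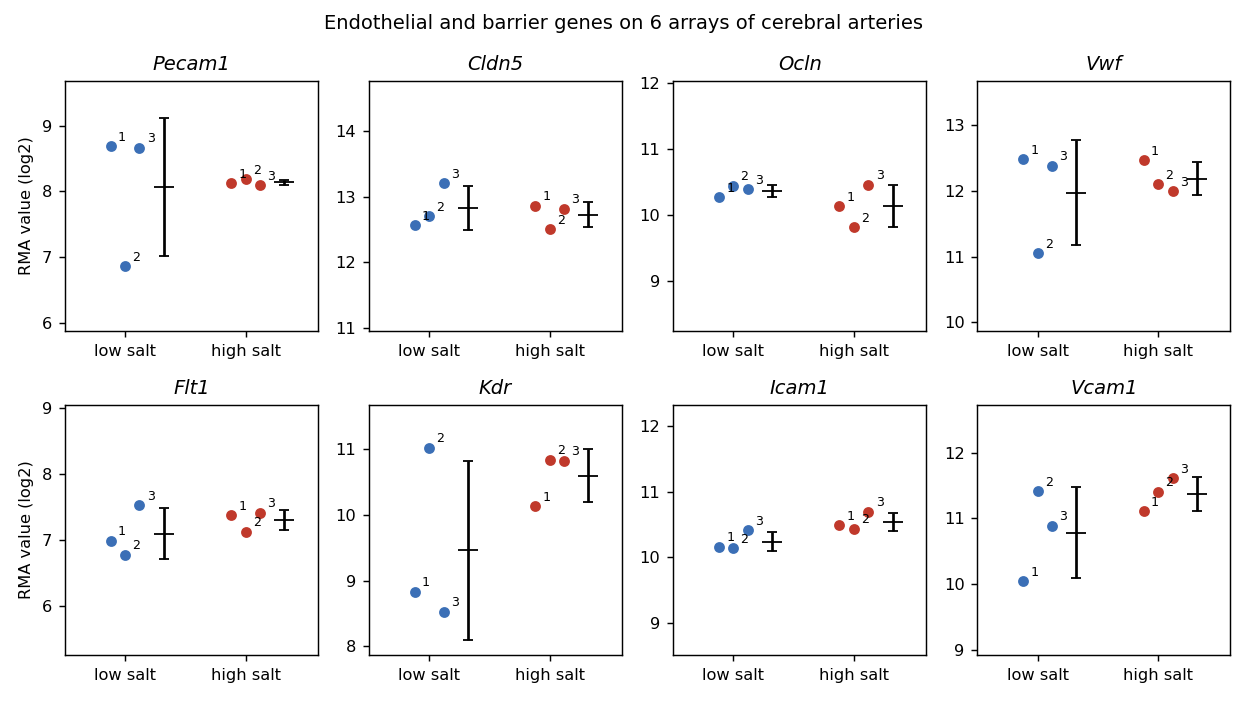
RMA values (log2, y axes of equal span) of the 8 members on the 3 low salt (blue) and 3 high salt (red) arrays, numbered by replicate, with the mean and SD of each diet in black. Low salt replicate 2 lay far below its group for Pecam1 (6.86) and Vwf (11.05) and far above it for Kdr (11.02), and the diets were apart for Icam1 only.

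Among the junction genes, Pecam1 encodes the adhesion molecule CD31, found on endothelium, platelets and leukocytes. Its values were 8.69, 6.86 and 8.66 log2 units on low salt replicates 1, 2 and 3, and 8.13, 8.18 and 8.10 on high salt. The high salt arrays thus lay between the low salt extremes, close together, while 1 low salt array was low by itself. The means were 8.07 ± 1.05 (SD, n = 3) and 8.14 ± 0.044, and the difference was 0.064 ± 0.51 (SE; limma adjusted p = 0.978), with a 95% interval from -1.18 to 1.31. Without low salt replicate 2 the difference turned to -0.54 ± 0.10 (limma adjusted p = 0.152). The sign also turned after median centring (-0.067), quantile normalization (-0.11) and centring on the endothelial identity genes (-0.097).

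Cldn5, the main sealing claudin of brain endothelium, showed no such array. It was at 12.57, 12.70 and 13.21 on low salt and at 12.86, 12.50 and 12.82 on high salt, so that the groups overlapped, with the lowest array on high salt and the highest on low salt. The difference was -0.096 ± 0.20 (limma adjusted p = 0.908), and the 95% interval, from -0.60 to 0.40, held changes of either sign. The sign turned without low salt replicate 3 (0.095) or high salt replicate 2 (0.016).

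Ocln encodes occludin, a membrane protein of the tight junction strand that epithelia also carry. Its values were 10.27, 10.44 and 10.39 on low salt and 10.13, 9.81 and 10.45 on high salt, and high salt replicate 3 was the highest of all. The difference was -0.23 ± 0.18 (limma adjusted p = 0.803, 95% interval -0.67 to 0.21). After median centring it was -0.36 and after quantile normalization -0.48, and in both of these scales all high salt arrays lay below all low salt arrays, as they did for 13.9% and 7.66% of genes. After centring on the endothelial identity genes the difference was -0.40 and the diets overlapped, where 3.71% of genes lay apart on the lower side. A second probe set of Ocln, with a mean of 8.05, gave 0.083 ± 0.28, the opposite sign. With 1 array left out the brighter probe set gave from -0.40 (without high salt replicate 3) to -0.072 (without high salt replicate 2), and the mean of both probe sets gave -0.075.

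The related junction list held 28 genes, of which 21 were measured, 3 of the members among them. Of these 14 had a higher mean after high salt, the median difference was 0.10, and 0 passed the threshold (limma, adjusted over all probe sets). Median centring gave a median of -0.030 and quantile normalization one of -0.0039. At an unadjusted p below 0.05 were 2 of the 21, both higher, where 5.72% of all genes lay. The diets were apart for 1, higher, where 8.64% of all genes were. F11r, the junctional adhesion molecule JAM-A, was at 9.38, 9.55 and 9.84 on low salt and 10.54, 10.08 and 10.28 on high salt, a difference of 0.71 ± 0.17 with the diets apart on the deposited scale (limma adjusted p = 0.803), and of 0.48 after quantile normalization. Cdh1, epithelial cadherin, differed by 2.02 ± 0.78 (limma adjusted p = 0.803), from 6.68, 9.18 and 6.38 to 8.95, 10.04 and 9.32 on high salt. Cdh1 thus shared the high value of low salt replicate 2 with Kdr, described next. Lsr, a protein of tricellular contacts, differed by 0.55 ± 0.23 (0.31 after quantile normalization), and Ctnna1, alpha catenin, by 0.16 ± 0.19. Tjp1, the scaffold ZO-1 that ties claudins to actin, was at 10.84, 12.51 and 11.68 on low salt and 11.80, 12.10 and 12.49 on high salt, a difference of 0.45 ± 0.44. It was 0.034 without low salt replicate 1 and 0.87 without replicate 2, and that of Ctnna1 was -0.012 and 0.31. Without low salt replicate 2 that of Lsr was 0.35.

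Of the receptors, Kdr, which carries most of the growth and permeability signal of VEGF, had the largest difference of the 8 members. It was at 8.83, 11.02 and 8.53 log2 units on low salt replicates 1, 2 and 3, and at 10.13, 10.83 and 10.82 on high salt. The highest array of all was thus a low salt array, and the other 2 of that diet were lowest. The means were 9.46 ± 1.36 (SD, n = 3) and 10.60 ± 0.40, a difference of 1.14 ± 0.68 (SE), or 2.20-fold, with a 95% interval from -0.54 to 2.81 (limma adjusted p = 0.803). The SD on low salt was at the 99.5 percentile of all genes. Without low salt replicate 2 the difference was 1.92 ± 0.26 (limma adjusted p = 0.104), and without low salt replicate 3 it was 0.67. The astrocyte mean was likewise low on those 2 low salt arrays and high on the third, as given above. The means of 10 fibroblast and meningeal markers were 11.16, 11.80 and 11.34 on low salt and 11.51 to 11.94 on high salt. The part of such cells in the Kdr values was not tested.

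Flt1 encodes a VEGF receptor that binds the ligand tightly and, in its soluble form, acts as a decoy. Its brightest probe set was at 6.99, 6.78 and 7.53 on low salt and 7.38, 7.13 and 7.41 on high salt, a difference of 0.21 ± 0.22 (limma adjusted p = 0.821) with the groups overlapping. It was 0.047 without low salt replicate 2, 0.42 without low salt replicate 3 and 0.020 as the mean of its probe sets. The other 2 probe sets, with means of 6.38 and 5.60, gave -0.048 ± 0.091 and -0.10 ± 0.13, and both lay below the lower quartile of probe sets. The probe set of Flt1 that was used stood at the 34.9 percentile of probe sets by mean value. Flt1 did not share the array pattern of Kdr, since low salt replicate 2 was its lowest array.

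Of 22 measured genes of the VEGF and angiopoietin list (26 listed), 13 had a higher mean after high salt, with a median of 0.072, which median centring took to -0.058 and quantile normalization to -0.057. Past the threshold stood 0 (limma, Benjamini-Hochberg), and 0 had an unadjusted p below 0.05, where 6.43% of all genes did. The diets were apart for 1 of the 22, higher, where 8.64% of all genes were. Epas1, the hypoxia-inducible factor HIF-2 alpha of endothelium, was at 11.09, 11.80 and 11.98 on low salt and 12.22, 12.00 and 12.12 on high salt. The diets were thus narrowly apart on the deposited scale, and they overlapped after median centring. The difference was 0.49 ± 0.24, and 0.28 after quantile normalization. Without low salt replicate 1 it was 0.22, and as the mean of its probe sets 0.20. Placental growth factor (Pgf), a ligand of Flt1, differed by -0.37 ± 0.28 (-0.58 after quantile normalization), and neuropilin Nrp2, a co-receptor, by -0.19 ± 0.13. With 1 array left out these ran from -0.67 (without low salt replicate 2) to -0.17 (without low salt replicate 3) for Pgf, and from -0.25 to -0.096 (without high salt replicate 3) for Nrp2. Vegfa, the ligand of both receptors, differed by 0.051 ± 0.30 and its sign turned after median centring (-0.080). Tie1, the partner receptor of the unmeasured Tek, differed by 0.13 ± 0.30, with its sign turned after quantile normalization (-0.10) and without low salt replicate 2 (-0.051).

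**Figure D2:**
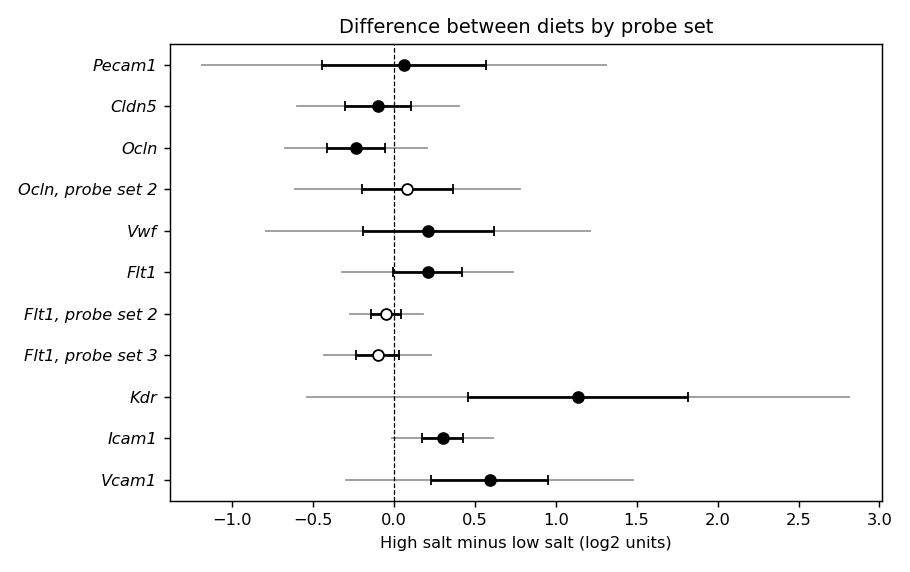
Difference of high from low salt (log2 units) for the 11 probe sets of the members, with the moderated SE (black bars) and the 95% interval (grey lines); open points are the dimmer probe sets of Ocln and Flt1. Every interval holds 0, and that of Kdr is the widest, from -0.54 to 2.81.

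Vwf encodes von Willebrand factor, stored in endothelial granules and released to bind platelets. It was at 12.48, 11.05 and 12.38 on low salt and 12.46, 12.10 and 11.99 on high salt. As with Pecam1, low salt replicate 2 was the lowest array. The other low salt arrays were level with the highest of the high salt arrays. The difference was 0.21 ± 0.41 (limma adjusted p = 0.898, 95% interval -0.79 to 1.21), and from 0.052 to 0.083 after the 3 other scalings. It turned to -0.25 ± 0.17 without low salt replicate 2 (limma adjusted p = 0.469).

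Icam1, the ligand of leukocyte beta-2 integrins, was the member with the lowest p. It was at 10.17, 10.14 and 10.41 on low salt and 10.49, 10.44 and 10.70 on high salt, and all high salt arrays lay above all low salt arrays. The means were 10.24 ± 0.15 (SD, n = 3) and 10.54 ± 0.14, a difference of 0.30 ± 0.13 (SE), or 1.23-fold (limma, unadjusted p = 0.0551, adjusted p = 0.803, 95% interval -0.0092 to 0.61). The gap between the highest low salt and the lowest high salt array was small, and the diets overlapped after median centring (0.17), quantile normalization (0.054) and centring on the endothelial identity genes (0.14). With 1 array left out the difference ran from 0.22 to 0.39.

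Vcam1, the ligand of the integrin VLA-4 on lymphocytes and monocytes, was at 10.04, 11.42 and 10.89 on low salt and 11.11, 11.40 and 11.61 on high salt. Low salt replicate 1 was low and low salt replicate 2 was level with the high salt arrays. The difference was 0.59 ± 0.36, or 1.51-fold (limma adjusted p = 0.803, 95% interval -0.30 to 1.48). It was 0.91 ± 0.30 without low salt replicate 2 (limma adjusted p = 0.257) and 0.22 without low salt replicate 1.

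Icam1 and Vcam1 are textbook targets of NF-kappaB. Vcam1 and Kdr both had low salt replicate 2 as their highest low salt array, as Ocln and 36.7% of all genes did. The bases upstream of Icam1, Vcam1 and Kdr are shown. They come from RefSeq (GRCr8), whose promoter table held 6 of the 10 members, and are given 5′ to 3′ on the gene's strand as far as they lie outside every annotated transcript of the gene. Capitals mark matches, on either strand, to the NF-kappaB-like motif GGNNNTTCC and to the TATA motif TATAAA. The windows are chr8:27829595-27829687 (plus strand) for Icam1, chr2:206742784-206743033 (minus strand) for Vcam1 and chr14:32571813-32572030 (plus strand) for Kdr.
Icam1: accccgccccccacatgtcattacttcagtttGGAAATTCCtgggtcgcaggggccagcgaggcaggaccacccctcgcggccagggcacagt
Vcam1: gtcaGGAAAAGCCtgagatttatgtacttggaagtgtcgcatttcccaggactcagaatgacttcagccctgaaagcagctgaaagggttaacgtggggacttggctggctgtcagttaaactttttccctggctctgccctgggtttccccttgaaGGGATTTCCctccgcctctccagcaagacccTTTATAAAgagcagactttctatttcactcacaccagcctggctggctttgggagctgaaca
Kdr: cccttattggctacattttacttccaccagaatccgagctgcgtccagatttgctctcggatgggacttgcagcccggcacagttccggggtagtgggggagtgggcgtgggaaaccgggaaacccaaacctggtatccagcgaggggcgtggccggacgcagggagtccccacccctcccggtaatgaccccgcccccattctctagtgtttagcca
The Icam1 window, 250 to 158 bases before the start in the table, held 1 match, GGAAATTCC, and 5.46% of all promoters held one in the same 93 bases. The 250 bases before Vcam1 held 2 matches, GGAAAAGCC on the other strand and GGGATTTCC 93 to 85 bases before the start, where 15.4% of promoters held at least 1. In Vcam1 the TATA motif matched both strands in overlapping bases (TTTATAAA), 62 to 55 bases before the start, and 13.1% of promoters held a match. In the 218 bases of Kdr 0 matches to either motif were found, and 13.4% and 11.1% of promoters held one. The 250 bases before Cldn5, searched but not shown, also held 0 matches to either motif, where 15.4% and 13.1% of promoters held one. A match is a run of letters and was not measured as a binding site.

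Among 25 measured genes of the leukocyte adhesion list (34 listed), 16 had a higher mean after high salt, with a median of 0.23. Median centring gave 0.10 in its place and quantile normalization 0.039. Past the threshold stood 0 (limma, Benjamini-Hochberg), and 2 had an unadjusted p below 0.05, both higher, where 5.72% of all genes lay. The diets were apart for 3 higher and 2 lower of the 25, where 8.64% and 3.32% of all genes were. Sirpa, a receptor of macrophages that binds CD47, was at 9.09, 9.36 and 9.18 on low salt and 9.70, 10.00 and 9.88 on high salt, a difference of 0.65 ± 0.13 with the diets apart (0.42 after quantile normalization). As the mean of its probe sets it was 0.17, with an unadjusted limma p of 0.129 against 0.00244 for the brightest. The tumour necrosis factor receptor Tnfrsf1a differed by 0.55 ± 0.19 (0.32 after quantile normalization). Its diets were apart on the deposited scale and overlapped after median centring. The chemokine Cxcl12 differed by 1.08 ± 0.46 and was at 11.01 on low salt replicate 2, within the high salt values of 10.79 to 11.19. On the other low salt arrays Cxcl12 was lower, as Kdr was, although Kdr on low salt replicate 2 lay above its high salt values. Integrin beta 1 (Itgb1), which forms VLA-4 with the alpha 4 chain, differed by 0.23 ± 0.20, which became 0.011 without low salt replicate 1, 0.36 without low salt replicate 3 and 0.44 as the mean of its probe sets. Averaged in that way Cxcl12 differed by 0.65. The selectins Sele and Selp, which catch rolling leukocytes on activated endothelium, had dim probe sets, from 5.33 to 5.46 and from 5.91 to 6.01 log2 units, at the 4.76 and 14.0 percentiles of probe sets. Both differed by -0.076 (SE 0.084 and 0.082) with every high salt array below every low salt array, at these low signals. Beside these genes, the 14 measured microglia and macrophage markers had a mean of 8.84 to 9.38 on low salt and 9.31 to 9.62 on high salt. Of the 14, 12 were higher, and the median difference was 0.31. C1qa, a complement chain of macrophages, had the largest difference, 1.19 ± 0.34, against 0.33 ± 0.21 for C1qb and 0.10 ± 0.40 for C1qc. T cell, B cell and neutrophil markers had a mean of 6.45 to 6.49 on low salt and 6.35 to 6.67 on high salt, with 6 of 10 measured below the lower quartile. Of the 10, 6 were lower and 4 higher after high salt. They ran from -0.29 ± 0.11 for the T cell gene Cd3g to 0.78 ± 0.46 for the neutrophil gene S100a9. The diets were apart for 3 of the 10, all lower, where 3.32% of all genes were. The part of leukocytes in the adhesion genes was not tested.

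The haemostasis list had 17 of 23 genes measured, 12 of them with a higher mean after high salt and a median of 0.28 (0.15 after median centring, 0.21 after quantile normalization). Past the threshold stood 0 (limma, Benjamini-Hochberg). The thrombin receptor F2r was at 9.46, 9.87 and 10.13 on low salt and 11.02, 10.37 and 10.85 on high salt, a difference of 0.92 ± 0.24. Tissue factor (F3), which starts clotting outside the vessel lining, was at 8.03, 9.63 and 9.20 on low salt and between 10.00 and 10.07 on high salt, a difference of 1.08 ± 0.40. The diets were apart for both genes, the only 2 of the 17, where 8.64% of all genes were apart and higher. The inhibitor of tissue factor, Tfpi, differed by 1.08 ± 0.64 with overlap, and annexin Anxa2, a cell surface site of plasmin formation, by 0.69 ± 0.43. Without low salt replicate 1 the differences were 0.61 for F3, 0.63 for Tfpi and 0.24 for Anxa2, and without replicate 2 they were 1.82 for Tfpi and 1.08 for Anxa2. F3 is known from astrocytes and adventitial cells as well, and their part in its values was not tested.

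Barrier transporters and Wnt effectors, the genes that give brain endothelium its selective uptake, were measured for 31 of 40, and 17 had a higher mean after high salt with a median of 0.047 (-0.083 with median centring, -0.012 with quantile normalization). Past the threshold stood 0 (limma, Benjamini-Hochberg) and 1 had an unadjusted p below 0.05, on the higher side, where 5.72% of all genes lay. The organic anion carrier Slco2b1 differed by 0.35 ± 0.13 (0.11 after quantile normalization), and Slc3a2, the heavy chain of the large amino acid transporter, by 0.29 ± 0.13 (0.12). The lipoprotein receptor Lrp8, a gene raised by Wnt in brain endothelium, was at 9.82, 9.32 and 9.10 on low salt and 8.94, 8.89 and 9.03 on high salt, a difference of -0.46 ± 0.20 (-0.69 after quantile normalization). On the deposited scale the diets did not overlap for these 3 genes, which were named for their low p. They were 2 higher and 1 lower of the 31, where 8.64% and 3.32% of all genes did not overlap. After median centring the diets overlapped for Slco2b1 and Slc3a2. Slco2b1 gave 0.082 as the mean of its probe sets, and Lrp8 gave -0.25 without low salt replicate 1. Igfbp7, a secreted protein of brain vessels, differed by -0.077 ± 0.26. The glucose transporter Slc2a1 was at 10.78, 10.03 and 11.01 on low salt and 10.82, 10.81 and 11.05 on high salt, so that low salt replicate 2 was low, as for Pecam1, and the difference of 0.29 ± 0.27 became -0.0033 without it and 0.49 without replicate 3. The efflux pump Abcb1a differed by 0.39 ± 0.35, and by 0.15 (without high salt replicate 2) to 0.71 (without high salt replicate 1) with 1 array left out.

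Endothelial identity genes that are no members gave 20 higher of 32, with a median of 0.048 (-0.083 with median centring, -0.064 with quantile normalization), and 0 past the threshold (limma, Benjamini-Hochberg). The diets were apart for 1 of the 32, higher, where 8.64% of all genes were. The transcription factor Gata2 was at 8.96, 9.08 and 9.32 on low salt and 10.29, 9.66 and 9.64 on high salt, a difference of 0.75 ± 0.21 with the diets apart (0.51 after quantile normalization, limma adjusted p = 0.803). Gja5, the arterial connexin Cx40, differed by 0.90 ± 0.32, Mcam by 0.82 ± 0.34 and the flow-induced factor Klf2 by 0.31 ± 0.22 (0.14 after quantile normalization). As means of their probe sets Gja5 differed by 0.51, Mcam by 0.16 and Klf2 by 0.14, and Klf2 ran from 0.10 (without high salt replicate 1) to 0.47 (without high salt replicate 2) with 1 array left out. The adjusted p (limma, Benjamini-Hochberg) of Gja5, Mcam and Klf2 was 0.803 for each. Gata2, Gja5, Mcam and Klf2 were named for low p or brightness and were all higher, while 12 of the 32 genes were lower, down to -0.46. Among the lower ones was Gja4, also a connexin, at -0.42 ± 0.18 (limma adjusted p = 0.803).

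**Figure D3:**
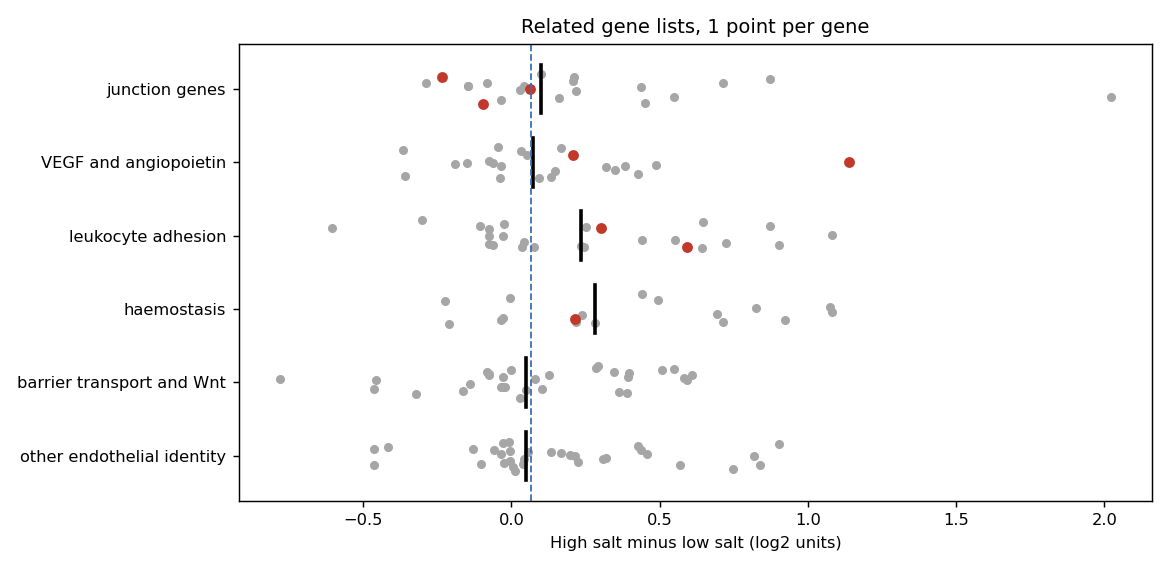
Difference of high from low salt (log2 units) for every measured gene of 6 related lists (grey points), with members in red, the list's median as a black bar and the median of all genes (0.067) as a blue dashed line. The points of every list lie on both sides of 0, and list medians run from 0.047 to 0.28, of which 4 of 6 fall below 0 after median centring and after quantile normalization.

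How the members varied among the arrays of 1 diet was compared next, by setting low salt replicate 2 against the mean of low salt replicates 1 and 3. It differed from them by -1.81 log2 units for Pecam1 and by -1.38 for Vwf, at the 0.192 and 0.788 percentiles of all genes. The same contrast was 2.34 for Kdr, at the 99.7 percentile, and 0.95 for Vcam1, at the 89.9 percentile. The other 4 members lay between, from -0.48 for Flt1 to 0.11 for Ocln. In all, this array was below both others of its diet for 4 members and above both for 3, where 42.5% and 36.7% of all genes were. Among the endothelial identity genes it was below both for 18 of 32 and above both for 7, and among the 11 astrocyte markers below both for 2 and above both for 9. The members thus did not shift together on that array. On high salt the spread was small for Pecam1, whose SD was at the 7.91 percentile of genes, and wide for Kdr, at the 90.7 percentile.

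**Figure D4:**
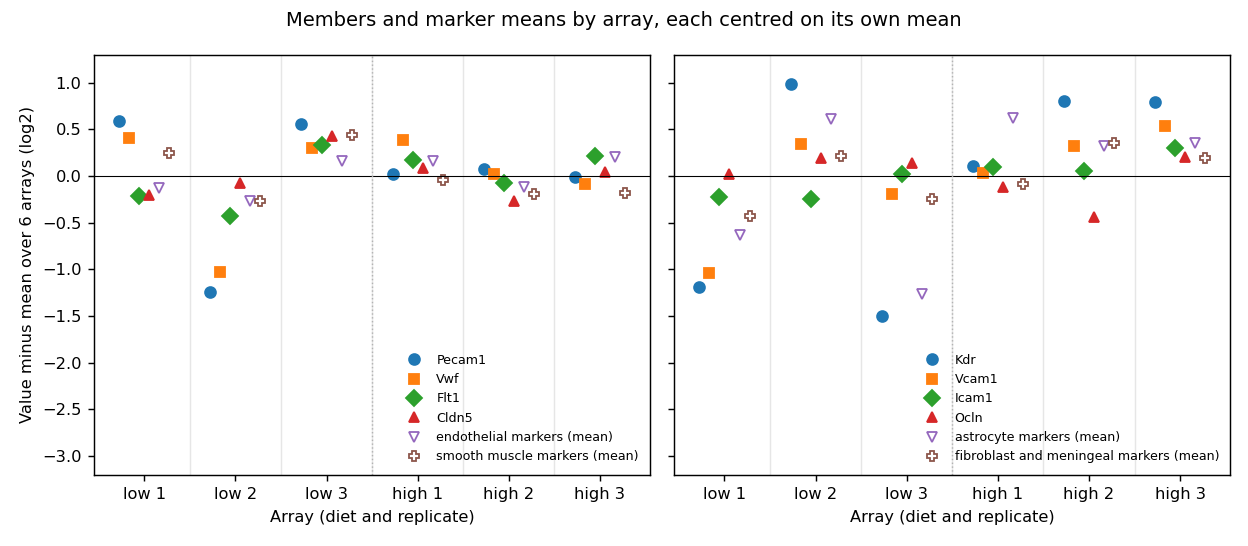
Log2 values of the 8 members (filled) and the means of 4 marker lists (open), each minus its own mean over the 6 arrays, by array. Pecam1 (-1.24) and Vwf (-1.03) were low on low salt replicate 2, where Kdr (0.99) and the astrocyte mean (0.61) were high; Kdr (-1.50) and the astrocyte mean (-1.26) were lowest on low salt replicate 3.

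The genes whose centred values lay nearest to a member over the 6 arrays were sought by root mean square difference, for 1 member per role and among genes with an SD of at least 0.5 times its own. For Kdr these were Trpm3 (a cation channel, 0.15 log2 units), Slc24a3 (a sodium-calcium exchanger, 0.19), Slc6a13 (a carrier of GABA and taurine, 0.19) and Scn4b (a sodium channel subunit, 0.20), of 1484 genes compared. Slc6a13, a marker on the meningeal list, was at 9.77, 11.77 and 9.59 on low salt and 10.99, 11.97 and 11.39 on high salt. For Vwf they were Bcam (a laminin receptor, 0.072), Cenpb (0.086), Rala (0.097) and Hyal2 (0.11), of 5049 genes. Bcam was at 11.41, 10.12 and 11.47 on low salt and 11.47, 11.04 and 10.90 on high salt. For Cldn5 they were Tns1 (tensin, 0.037), Cystm1 (0.063), Rab33b (0.070) and Inpp5a (0.091), of 8397 genes. None of these 12 genes was on the endothelial identity list, which held only 32 of the 10411 genes. Over 6 arrays such closeness is a description of these arrays only.

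Without low salt replicate 2 the picture of the members was different in size and, for Pecam1 and Vwf, in sign. Kdr (1.92) and Vcam1 (0.91) then stood higher and Pecam1 (-0.54) lower after high salt, each at an unadjusted p below 0.05. Those are 2 members higher and 1 lower, in a setting where 15.3% and 4.71% of all genes lay on these sides, and 0 of 15866 probe sets passed the threshold (0% called, limma, Benjamini-Hochberg). Over all alternatives run, the adjusted p (limma) of Kdr ran from 0.104 to 0.999, that of Vcam1 from 0.257 to 0.999, that of Pecam1 from 0.152 to 0.999 and that of Vwf from 0.469 to 0.999. Without that array the median of the members was -0.056, against 0.060 for all genes. Leaving out an array because it stood apart is a choice made after its values were seen, and the labels give no reason to set it aside.

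**Figure D5:**
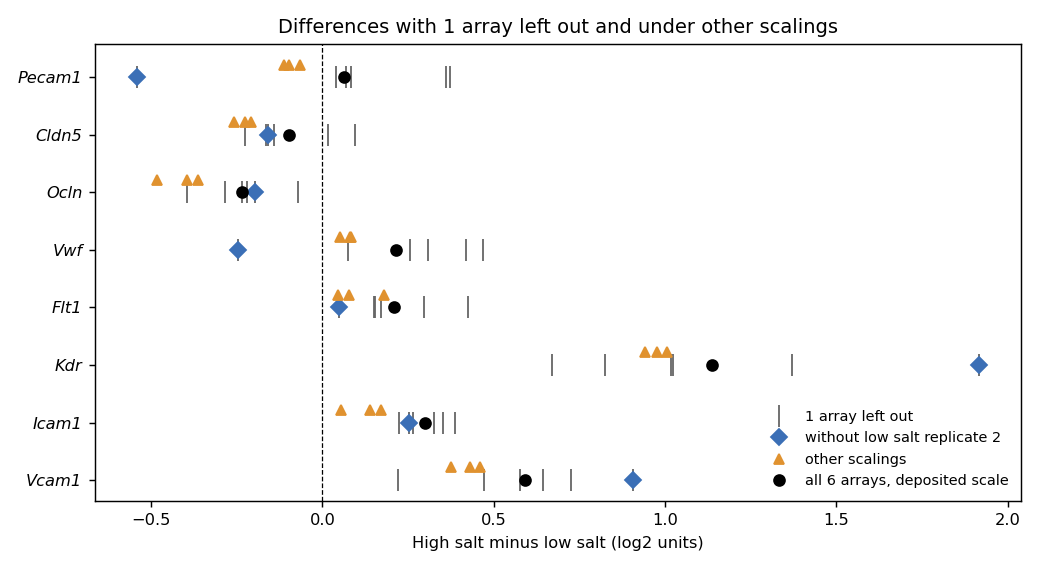
Difference of high from low salt (log2 units) for the 8 members with all arrays (black), with each array left out in turn (ticks, low salt replicate 2 as blue diamonds) and after 3 other scalings (orange triangles). Pecam1 runs from -0.54 to 0.37 and Vwf from -0.25 to 0.47, on both sides of 0, while Kdr runs from 0.67 to 1.92.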

How the data were processed

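Expression was measured on Affymetrix rat arrays, 1 per pool of rats, after 2-cycle amplification. The authors deposited log2 values per probe set made with RMA (background correction, normalization and probe summary), as the submitters' processing notes name it. The version was not given in the sources used here, and base 2 was read from the range of values. Array medians differed between the diets, so other scalings were tried. Of 15923 probe sets 57 controls were left out. Names came from the platform annotation: 12783 probe sets had 1 symbol, 312 several (not used) and 2771 none here, and 12748 matched RefSeq by Entrez identifier with 0 symbols changed.

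Diets were compared with limma (version 3.58.1, R 4.3.3; lmFit, eBayes, no block), adjusted by Benjamini-Hochberg over 15866 probe sets, threshold 0.05. The steps were tested on simulated data. Differences are high salt minus low salt; percentiles rank genes or probe sets; the number of arrays limits precision. Since pools are of separate rats, p-values measure the spread between pools and arrays together.

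The members, lists and tests were chosen with earlier results of these data known. The naming rule took all members, up to 3 genes of lowest p and the brightest gene of each list, the brightest and lowest-p gene of each marker set, and 4 genes nearest to 1 member per role. Tie1, Vegfa, Sele, Selp, Tjp1, Slc2a1 and Abcb1a lie outside it and were chosen for their roles after their values were seen, which makes 66 genes in all. Gja4, C1qb, C1qc and S100a9 are given only beside named genes of their lists and are not among the 66. Alternatives were 3 scalings, leaving out the lowest 40% of probe sets by mean, a trended robust variance, array weights (which did not converge fully), a block by replicate number, each array left out, and averaging each gene's probe sets.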

Additional observations from a re-analysis of the deposited data

How the results depend on the processing

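Past the threshold stood 0 probe sets and 0 members (limma, Benjamini-Hochberg) in every alternative run, and the smallest adjusted p ran from 0.0501 (without low salt replicate 2) to 0.999 over probe sets and from 0.104 to 0.999 over members. At an unadjusted p below 0.05 were 846 probe sets with all arrays, and from 366 (without high salt replicate 1) to 2722 (without low salt replicate 2) with 1 left out. Array weights gave 1439 and centring on the endothelial identity genes 478. The count of members with a higher mean ran from 4 to 7 and their median from -0.056 to 0.40. Median centring moved the median of all genes from 0.067 to -0.064, quantile normalization to -0.019 and centring on the endothelial identity genes to -0.094. The share of genes higher after high salt fell from 60.0% to 42.8%, 46.3% and 39.6%, and 5 of 8 members were higher in each, against 6 on the deposited scale, since Pecam1 turned. With the replicate block 716 probe sets had an unadjusted p below 0.05 and 0 passed. Deviations of equally numbered arrays from their diet's mean correlated at 0.038, -0.27 and 0.044 over probe sets. The highest value was 0.37, for low salt replicate 2 with high salt replicate 3, followed by 0.35 for low salt replicate 1 with high salt replicate 2. With 3 arrays per diet such values cannot tell whether the numbers mark a shared batch, and the labels do not say. All differences kept their values under the block, as the design is balanced. Of 66 genes named, 46 kept their sign in every one of the 14 alternatives that gave them a value and 20 did not (the filter on low values removed 5), and the cause was not tested.

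The sign turned after median centring for Pecam1 (-0.067) and Vegfa (-0.080). After quantile normalization it turned for Pecam1 (-0.11), the oligodendrocyte gene Cldn11 (-0.0036), Tie1 (-0.10), Bcam (-0.070), Cenpb (-0.10), Rala (-0.044) and Hyal2 (-0.052). After centring on the endothelial identity genes it turned for Pecam1 (-0.097), Tie1 (-0.027), Vegfa (-0.11) and Bcam (-0.024). With array weights it turned for Pecam1 (-0.19), Flt1 (-0.00030), Tie1 (-0.020) and Bcam (-0.040). With 1 array left out the difference ran from -0.54 to 0.37 for Pecam1, -0.22 to 0.095 for Cldn5, -0.25 to 0.47 for Vwf, -0.012 to 0.31 for Ctnna1 and -0.36 to 0.093 for Igfbp7. It ran from -0.17 to 0.075 for the smooth muscle gene Tpm2, -0.12 to 0.44 for the pericyte gene Vtn, -0.051 to 0.41 for Tie1, -0.15 to 0.32 for Vegfa and -0.0033 to 0.49 for Slc2a1. Among the nearest genes it ran from -0.22 to 0.080 for Tns1, -0.17 to 0.18 for Cystm1, -0.19 to 0.062 for Rab33b, -0.18 to 0.13 for Inpp5a, -0.30 to 0.37 for Bcam, -0.25 to 0.40 for Cenpb, -0.22 to 0.42 for Rala and -0.18 to 0.44 for Hyal2. Signal over background limits Flt1, Sele and Selp, whose probe sets were dim.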
